A study of Mus musculus with 4 samples.

Results

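Reactive astrocyte genes are the genes that spinal cord astrocytes are known to switch on when the tissue around them is injured or degenerating. Here 10 gene names (Gfap, Vim, Nes, Cd44, S1pr3, Emp1, Steap4, Cp, Lcn2 and Aspg) were taken by name from a table of 18674 gene names, and all 10 were found, on 17 of its 23750 transcript rows. The value of a name is the mean of its rows. The choice used no measured value, although the list was drawn up with earlier results of these data known. The RNA was extracted from lumbar cord. It came from wild type (WT) animals and from ALS (G93A) transgenic animals of the G93A H1 high-expresser strain, which carry a mutant human SOD1 transgene active in most cell types and not in astrocytes alone. Animals of both genotypes received either spermidine (SD), a natural polyamine, or vehicle for 30 days, with dosing 4 times per week, and according to the methods they were killed at 100 days of age. The vehicle is PBS in the treatment protocol and in the sequencing methods, the treatment label of the vehicle libraries reads none, and saline is named elsewhere in the methods. Each of the 4 conditions (WT vehicle, G93A vehicle, WT + SD and G93A + SD) has 1 library, and the number of mice behind each library is not given in the sources used here. Thus every difference below is between single libraries, without a replicate error or a p-value. Transgenic males were bred with B6/SJLF1 females, and the treatment studies used male mice.

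Astrocytes hold the extracellular potassium, glutamate and water of the cord in balance, and they answer motor neuron degeneration by growing larger processes filled with intermediate filaments. This response, called astrogliosis, is followed in tissue by staining for glial fibrillary acidic protein, the product of Gfap. Cytokines that signal through the transcription factor STAT3 and factors released by activated microglia are known to drive it. Several of the genes are not made by astrocytes alone: vimentin is also found in microglia, vessels and ependyma, CD44 in leukocytes, and lipocalin 2 in neutrophils.

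The deposited values have no unit in the header and were read as RPKM, a read count scaled to transcript length and to library size. Their totals over all rows lay between 376852 and 393328 in the 4 libraries. From the commonest low value multiplied by transcript length, the depth was estimated at 36800000 to 38600000 fragments per library. The tissue label was checked on 6 Hox genes of the thoracolumbar cord (Hoxa9, Hoxa10, Hoxc9, Hoxc10, Hoxd9 and Hoxd10), which were expressed in all 4 libraries. Their sum was 49.999 RPKM in WT vehicle, 49.2 RPKM in WT + SD, 35.9 RPKM in G93A vehicle and 33.5 RPKM in G93A + SD, so that it was lower in G93A, with Hoxc10 called lower in the vehicle pair. Of the forebrain genes Emx1 was at 0.0224 RPKM or less in each library, and Neurod6 lay between 1.19 and 1.64 RPKM. A gene was called higher or lower where its value plus 0.1 RPKM differed at least 1.5-fold, which is 0.58 on the log2 scale.

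The stretch before the start site is shown for 4 of the genes, since the members differed together between the genotypes: Gfap as the member with the highest level, Vim as the member with the largest fold, and Emp1 and Steap4 as the members in which a STAT motif was found. Each sequence holds the 250 bases upstream of a RefSeq transcript start, 5′ to 3′ on the gene's strand in build GRCm38.p6, and capitals mark matches to the motifs searched. The windows are chr11:102897201-102897450 on the minus strand for Gfap, chr2:13574061-13574310 on the plus strand for Vim, chr6:135362681-135362930 on the plus strand for Emp1 and chr5:7960222-7960471 on the plus strand for Steap4.
Gfap: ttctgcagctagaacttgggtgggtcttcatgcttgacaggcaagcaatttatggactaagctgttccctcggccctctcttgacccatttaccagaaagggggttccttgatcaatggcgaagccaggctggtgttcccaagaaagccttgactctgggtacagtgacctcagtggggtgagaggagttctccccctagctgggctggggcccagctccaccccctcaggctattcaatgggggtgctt
Vim: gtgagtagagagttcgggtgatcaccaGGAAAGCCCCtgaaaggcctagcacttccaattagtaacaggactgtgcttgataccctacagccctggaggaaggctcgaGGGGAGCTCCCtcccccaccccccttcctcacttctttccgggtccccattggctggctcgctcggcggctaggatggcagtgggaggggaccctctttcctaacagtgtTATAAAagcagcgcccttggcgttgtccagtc
Emp1: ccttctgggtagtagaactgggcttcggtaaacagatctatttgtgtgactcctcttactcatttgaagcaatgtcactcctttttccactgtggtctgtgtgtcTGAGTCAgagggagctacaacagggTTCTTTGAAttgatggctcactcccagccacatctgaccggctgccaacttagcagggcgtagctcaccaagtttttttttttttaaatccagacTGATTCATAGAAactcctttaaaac
Steap4: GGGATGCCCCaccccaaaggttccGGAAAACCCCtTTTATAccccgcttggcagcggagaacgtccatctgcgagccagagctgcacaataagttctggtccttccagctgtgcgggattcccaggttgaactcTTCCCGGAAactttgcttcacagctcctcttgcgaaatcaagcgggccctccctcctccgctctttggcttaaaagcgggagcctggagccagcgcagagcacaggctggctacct

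The motifs searched on both strands were those of STAT, AP-1, the TATA box and NF-kB. The STAT motif was spelled TTCNNNGAA. The AP-1 motif was spelled TGANTCA. For the TATA box the letters searched were TATAAA, and NF-kB was searched by its degenerate motif. The 10 genes had 12 such windows, since Cp and Emp1 have a pair of starts each. The STAT motif occurred in 1 window of Emp1 and in that of Steap4, that is in 2 of 12, against 7.02% of all 32851 windows. In Emp1 it occurred at positions -120 to -112 and -22 to -14 from the start, and the second of these overlaps an AP-1 motif at -25 to -19. In Steap4 it occurred at -116 to -108. AP-1 was found in 1 window each of Emp1 and Cp (2 of 12, against 6.75% of all windows), NF-kB in Vim and Steap4 (2 of 12, against 7.25%), and TATA in Vim, Steap4 and Cp (3 of 12, against 12.4%). The Vim TATA motif lies at -32 to -27. None of these letters occurred in the windows of Gfap, Nes, Cd44, S1pr3, Lcn2 or Aspg, which says nothing of whether the factors act on those genes.

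To see how the genotype moved these genes without SD, G93A vehicle was compared with WT vehicle. All 10 members were called higher in G93A vehicle, where 14.4% of all gene names were, and none was called lower (5.31% of all names). Of the 12987 names with a mean of at least 1 RPKM, 13.1% were called higher and 4.34% lower, and the 9 members among them were all called higher. By any amount, 56.4% of the names above 0 in either library were higher. The median log2 fold change of the members was 2.53, against 0.046 over all names. Vim and S1pr3 had the largest log2 fold changes, and Cp and Lcn2 the smallest. In bulk tissue, more astrocytes and more RNA of these genes in each astrocyte cannot be told apart.

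Gfap and Vim, genes of intermediate filament proteins, held the highest levels of the members. Gfap was 441 RPKM in WT vehicle, 386 RPKM in WT + SD, 2269 RPKM in G93A vehicle and 2707 RPKM in G93A + SD. The G93A libraries lay far above both WT libraries, and the G93A + SD library was the highest. The G93A vehicle level was 5.14 times that of WT vehicle. Ordered by RPKM among all names, it stood in place 29 in WT vehicle and in place 35 in WT + SD, and in place 4 in both G93A libraries. In GRCm38 its locus, on the minus strand, is chr11:102887336-102900912.

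Vimentin is the filament protein that immature and reactive astrocytes assemble together with GFAP. Vim was 29.8 RPKM in WT vehicle, 27.8 RPKM in WT + SD, 379 RPKM in G93A vehicle and 586 RPKM in G93A + SD. The WT libraries were close to each other and the G93A libraries were well apart from them and from each other. The G93A vehicle level was 12.8 times that of WT vehicle, the largest fold of the 10 members. By log2 fold change it was number 57 of 12988 names (names with a mean of at least 1 RPKM, plus Steap4). Vim lies at chr2:13573927-13582826 on the plus strand. It went from place 1839 by RPKM in WT vehicle to place 49 in G93A vehicle and place 24 in G93A + SD.

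Nestin, the large filament protein of neural progenitors, returns in reactive astrocytes. Nes was 3.09 RPKM in WT vehicle, 3.06 RPKM in WT + SD, 16.1 RPKM in G93A vehicle and 19.5 RPKM in G93A + SD. Its fold in G93A vehicle, 5.21, was close to that of Gfap, so that the ratio of Nes to Gfap stayed between 0.00701 and 0.00792 in all 4 libraries. Nes lies at chr3:87971078-87980451 on the plus strand. The ratio of Vim to Gfap did not stay constant and was 0.0675 under vehicle and 0.0721 under SD in WT, and 0.167 under vehicle and 0.216 under SD in G93A. Vim and Gfap therefore differed in the size of their changes although both were higher in G93A cord.

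**Figure D1:**
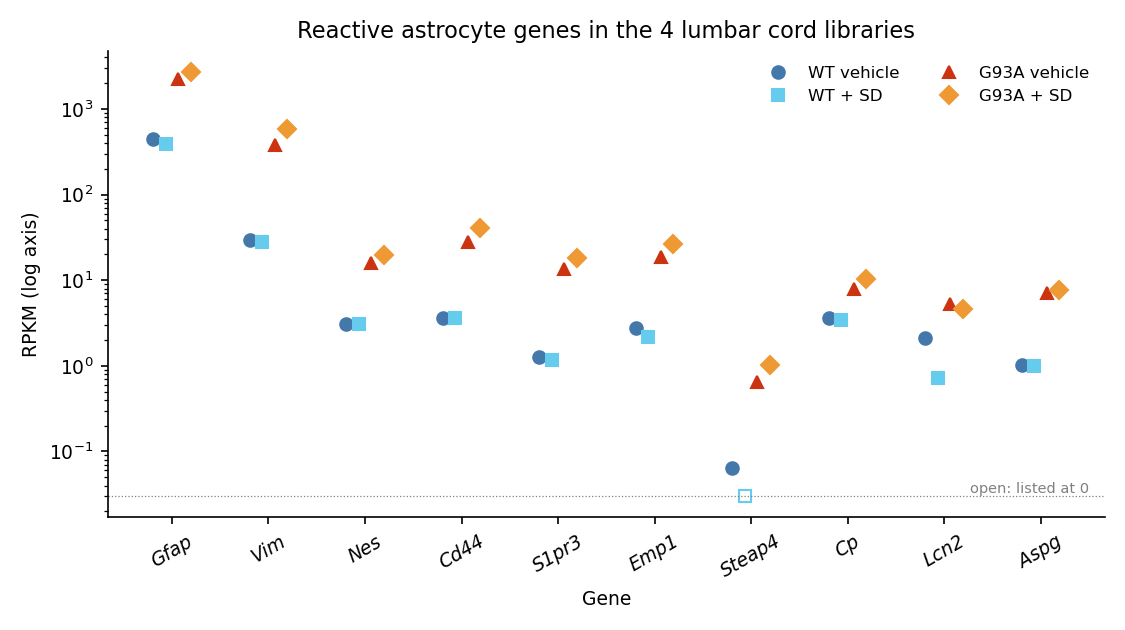
RPKM of the 10 reactive astrocyte genes (horizontal axis) in each of the 4 libraries, on a log axis; each point is 1 library, and an open symbol on the dotted line is a value listed at 0. The triangles and diamonds of the G93A libraries lie above the circles and squares of the WT libraries for all 10 genes, from 0.648 against 0.0649 RPKM for Steap4 to 2269 against 441 RPKM for Gfap under vehicle.

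Cd44 and S1pr3 encode receptors at the cell surface. CD44 binds hyaluronan and osteopontin, and the S1PR3 protein is a receptor for sphingosine 1-phosphate, a lipid mediator of inflammation. Cd44 was 3.60 RPKM in WT vehicle, 3.65 RPKM in WT + SD, 27.8 RPKM in G93A vehicle and 40.5 RPKM in G93A + SD, a fold of 7.72 between the vehicle libraries. The WT libraries were nearly equal. Cd44 is at chr2:102811141-102901665 on the minus strand. The table lists 6 transcripts of Cd44, and their folds lay between 7.70 and 7.75, so that the rows gave the same picture, as rows that share most of their exons must.

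S1pr3 was 1.27 RPKM in WT vehicle, 1.15 RPKM in WT + SD, 13.4 RPKM in G93A vehicle and 18.4 RPKM in G93A + SD. It was low in both WT libraries and moderate in both G93A libraries, a 10.6-fold difference under vehicle. S1pr3 lies at chr13:51408639-51422797 on the plus strand. On the opposite strand, exons of Gm32834 overlap 45 bases of the S1pr3 transcript, and no source used here says that reads were counted by strand, so that its level is uncertain to that extent.

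Emp1 encodes epithelial membrane protein 1, a small membrane protein that is related to the myelin protein PMP22. It was 2.75 RPKM in WT vehicle, 2.18 RPKM in WT + SD, 18.7 RPKM in G93A vehicle and 26.2 RPKM in G93A + SD. Both WT levels were low, and the G93A vehicle level was 6.82 times the WT vehicle level. Emp1 is at chr6:135362545-135383173 on the plus strand.

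Steap4 and Cp act on metals: STEAP4 reduces iron and copper at membranes, and ceruloplasmin, the product of Cp, is a copper enzyme that oxidises iron and is made by astrocytes in a membrane-bound form. Steap4 was 0.0649 RPKM in WT vehicle, was listed at 0 in WT + SD, and was 0.648 RPKM in G93A vehicle and 1.03 RPKM in G93A + SD. It was the lowest of the members, with about 7.54, 0, 77.7 and 125 estimated fragments behind these values. The G93A vehicle level was 9.99 times the WT vehicle level, and no fold is given against the WT + SD library. Steap4 is at chr5:7960457-7982213 on the plus strand.

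Cp was 3.64 RPKM in WT vehicle, 3.43 RPKM in WT + SD, 7.90 RPKM in G93A vehicle and 10.2 RPKM in G93A + SD. Both G93A libraries lay above both WT libraries, as for 39.7% of all names, and the fold of 2.17 under vehicle was the smallest of the members. Cp is at chr3:19957054-20009145 on the plus strand. On the opposite strand, exons of Hps3 overlap 108 bases of annotated Cp exons and 0 bases of the Cp transcript that could be matched to the table, while the other Cp row had no match. Its 2 rows had folds of 2.17 and 2.18.

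Lipocalin 2, the product of Lcn2, is a secreted protein that binds bacterial siderophores and is released in inflammation. Lcn2 was 2.10 RPKM in WT vehicle, 0.728 RPKM in WT + SD, 5.27 RPKM in G93A vehicle and 4.67 RPKM in G93A + SD. By ratio, its WT libraries differed more from each other than those of any other member with a mean of at least 1 RPKM, and the G93A libraries differed little. The fold was 2.50 under vehicle and 6.42 under SD, with about 70.9, 25.5, 183 and 165 estimated fragments in the libraries in the order just given. Lcn2 lies at chr2:32384633-32388252 on the minus strand.

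Aspg encodes an asparaginase. It was 1.02 RPKM in WT vehicle, 0.997 RPKM in WT + SD, 7.17 RPKM in G93A vehicle and 7.77 RPKM in G93A + SD. Both values in WT and both values in G93A were close to each other, and the genotypes were 7.04-fold apart under vehicle. Aspg is at chr12:112106679-112127559 on the plus strand.

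For the 10 genes, no window of 53 bases, the read length of the study, of the matched transcripts occurred on either strand in an annotated transcript of another gene (0 of 5812 windows for Cd44 and 0 of 3893 for Gfap, for example).

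The comparison between genotypes could be repeated under SD, between G93A + SD and WT + SD, and these libraries are not those of the vehicle pair. All 10 members were again called higher, where 17.1% of all names were, and none lower (7.82% of all names). Of the names whose mean reached 1 RPKM, 15.8% were called higher and 7.85% lower, and by any amount 56.2% of the names above 0 were higher. Hence 10 of 10 were called higher in both pairs, against 11.6% of all names and 11.7% of those that reached a mean of 1 RPKM. The median log2 fold change was 3.14, which includes Steap4 with its value listed at 0 in WT + SD. For the 9 others the folds lay between 2.98 (Cp) and 21.0 (Vim), with 15.9 for S1pr3, 12.01 for Emp1, 11.1 for Cd44, 7.79 for Aspg, 7.01 for Gfap and 6.37 for Nes. Each of these folds was larger than that of the same gene in the vehicle pair. Both G93A libraries lay above both WT libraries for all 10 members, where this held for 39.7% of all names and 43.7% of those with a mean of at least 1 RPKM.

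**Figure D2:**
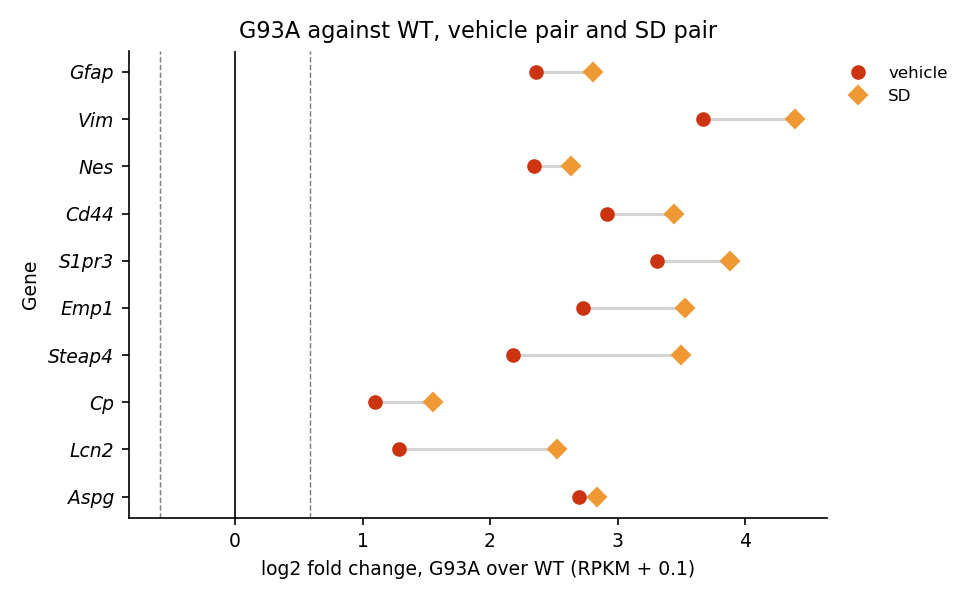
Log2 fold change of G93A over WT, on values plus 0.1 RPKM (horizontal axis), for each member in the vehicle pair (circles) and the SD pair (diamonds); dashed lines mark 1.5-fold, and the Steap4 diamond rests on a WT + SD value listed at 0. All points lie to the right of the dashed line, from 1.098 for Cp under vehicle to 4.39 for Vim under SD, and each diamond lies to the right of its circle.

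To examine what SD did in ALS (G93A) mice, in which the study also stained the cord for GFAP, G93A + SD was compared with G93A vehicle. The paper reports that SD lowered GFAP staining in the ventral gray matter of G93A mice. That is protein in sections from older mice, whereas the values here are RNA of lumbar cord from 1 library each. Of the members, 2 were called higher, Vim (1.54-fold) and Steap4 (1.59-fold), where 2.97% of all names were, and none was called lower (2.55% of all names). Neither call held at 2-fold or when the libraries were scaled to the astrocyte identity genes described below, where the median log2 fold change was 0.20 and Aspg was lower beside Lcn2. With a mean of at least 1 RPKM, a level Steap4 does not reach, 1.24% of names were called higher and 0.932% lower. By any amount, 9 of 10 were higher, against 52.4% of the names above 0 in either library, and Lcn2 was lower. As deposited, the median log2 fold change was 0.41, against 0.0068 over all names. Among the members that did not reach 1.5-fold, the fold was 1.46 for Cd44, 1.40 for Emp1, 1.37 for S1pr3, 1.29 for Cp, 1.21 for Nes, 1.19 for Gfap and 1.08 for Aspg, and Lcn2 was at 0.887 of its vehicle value.

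The largest of these differences in RPKM was that of Gfap, 437 RPKM, followed by 206 RPKM for Vim. The table lists a pair of Gfap transcripts. The transcript with 9 exons went from 3292 to 3980 RPKM, and the transcript with 8 exons went from 1247 to 1434 RPKM. The ratio of the first to the second was 2.46 under vehicle and 2.61 under SD in WT, and 2.64 under vehicle and 2.78 under SD in G93A. The ratio was lowest in WT vehicle and highest in G93A + SD. These rows share most of their exons and how reads in shared exons were assigned is not stated, so that the ratio is not a ratio of isoforms.

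In WT mice, SD was compared with vehicle in the same way. Of the members, 2 were called lower, Lcn2 and Steap4, where 2.8% of all names were, and none was called higher (2.25% of all names). With a mean of at least 1 RPKM, a level Lcn2 reaches and Steap4 does not, 1.16% of names were called lower and 0.732% higher. By any amount, 52.7% of the names above 0 in either library were higher. The call of Steap4 rests on 0.0649 RPKM against a value listed at 0. Lcn2 went from 2.10 to 0.728 RPKM. The 8 others were between 0.795 (Emp1) and 1.01 (Cd44) of their vehicle level, and the median log2 fold change was -0.11. By any amount 9 members were lower and Cd44 was higher. When the libraries were scaled to the astrocyte identity genes described below, 6 members were higher and 4 lower in WT + SD. This scaling alone moved the median of all names by 0.12, and 76.2% of the names above 0 in either library were then higher.

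The SD log2 fold change in G93A minus that in WT was positive for all 10 members, from 0.14 for Aspg to 1.31 for Steap4, with a median of 0.55 against 0.0017 over all names. With 1 library each, this difference was not tested. Scaled to the astrocyte identity genes, it was positive for 8 members, against 18.3% of all names, and negative for Nes (-0.049) and Aspg (-0.19), with a median of 0.21. In 9 members the G93A + SD library was the highest of the 4 and above both WT libraries (27.6% of all names), and in 8 of these the WT + SD library was the lowest as well (12.6% of all names). Cd44 and Lcn2 were the members outside this order.

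**Figure D3:**
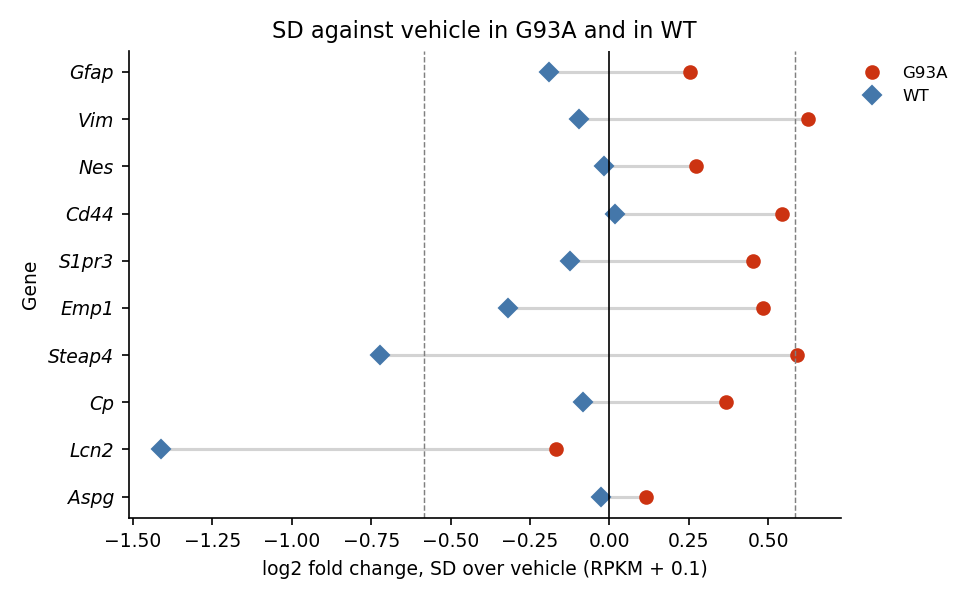
Log2 fold change of SD over vehicle, on values plus 0.1 RPKM (horizontal axis), for each member in G93A (circles) and in WT (diamonds); dashed lines mark 1.5-fold in either direction. In G93A the points run from -0.17 for Lcn2 to 0.63 for Vim, and in WT from -1.41 for Lcn2 to 0.018 for Cd44, and the WT point of Steap4 rests on a value listed at 0.

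Further genes of the reactive state were read from lists. The 5 other genes that are commonly taken as raised in any reactive astrocyte (Timp1, Hspb1, Cxcl10, Osmr and Serpina3n) were all called higher in the G93A library of the vehicle pair, with a median log2 fold change of 3.29. Timp1, an inhibitor of metalloproteinases, was 0.185 RPKM in WT vehicle against 30.6 RPKM in G93A vehicle, and Serpina3n, a secreted protease inhibitor, was 27.8 and 472.7 RPKM. In G93A + SD against G93A vehicle, 4 of the 5 were called higher, 3 with a pseudocount of 1, and 0 with a 2-fold call or when scaled to the astrocyte identity genes. Serpina3n reached 772 RPKM and Hspb1, a small heat shock protein, went from 56.8 to 91.1 RPKM. Osmr, the receptor subunit for oncostatin M, was 1.08 RPKM in WT vehicle, 1.02 RPKM in WT + SD, 11.5 RPKM in G93A vehicle and 17.4 RPKM in G93A + SD.

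Among 13 genes often named as the A1 set, which inflammatory stimuli raise, 10 were called higher in G93A vehicle and none lower, with a median log2 fold change of 1.62. Serping1, the C1 inhibitor, was 12.5-fold higher, Ggta1, a sugar transferase, 8.09-fold, Ugt1a1 5.82-fold and complement C3 4.55-fold. In G93A + SD against G93A vehicle the set was mixed, with 1 gene called higher and 2 lower. With a 2-fold call C3 (log2 fold change 0.66) and H2-D1 (-0.78) were not called, and H2-T23 (-2.44) was. C3 went from 175 to 277 RPKM, whereas the class I genes H2-D1 and H2-T23 went from 73.7 to 43.0 RPKM and from 11.0 to 1.95 RPKM. In WT + SD against WT vehicle C3, H2-D1 and H2-T23 were all called lower. Class I genes have near-identical relatives that can share reads, so that the levels of H2-D1 and H2-T23 are uncertain.

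Of 11 further genes often named as the A2 set, which ischaemia raises, all 11 were called higher in G93A vehicle, with a median log2 fold change of 1.49. Tgm1, a transglutaminase, was 0.0617 RPKM in WT vehicle against 11.2 RPKM in G93A vehicle. Ptx3, a pentraxin, was 25.9-fold, Cd109 14.9-fold and the endotoxin receptor gene Cd14 8.79-fold higher. Of this set, 4 were called higher and 1 lower between the G93A libraries, with SD over vehicle. The same counts were 2 and 0 with a pseudocount of 1, 0 and 0 with a 2-fold call, 3 and 0 with a mean of at least 1 RPKM, and 2 and 1 when scaled to the astrocyte identity genes. Cd109 went from 16.0 to 29.7 RPKM. In the vehicle pair 8 of the 11 were called with a pseudocount of 1, and 8 were left with a mean of at least 1 RPKM, since Ptgs2, Slc10a6 and B3gnt5 are low. Thus genes of both sets were higher in G93A cord.

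Astrocyte identity genes differed less between the genotypes than the members did. Of 15 such genes, 5 were called higher in G93A vehicle and none lower, with a median log2 fold change of 0.28, and their sum was 3122 RPKM in WT vehicle, 2973 RPKM in WT + SD, 3629 RPKM in G93A vehicle and 3787 RPKM in G93A + SD. The transcription factor gene Sox9 was 2.52-fold and the folate enzyme gene Aldh1l1 2.07-fold higher, the water channel gene Aqp4 was 159.5 RPKM in WT vehicle against 319 RPKM in G93A vehicle, while the glutamate transporter gene Slc1a2 was 216 RPKM in both vehicle libraries. In G93A + SD against G93A vehicle, 0 of the 15 genes were called in either direction. Relative to Aldh1l1, Gfap was 25.1 under vehicle and 26.7 under SD in WT, and 62.4 under vehicle and 64.1 under SD in G93A. The difference in Gfap between the genotypes thus exceeded that in Aldh1l1, whereas between the G93A libraries both genes moved by nearly the same factor.

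When each library was scaled by its astrocyte identity genes, an alternative chosen after seeing the data, all 10 members were still called higher in G93A in both pairs, where 10.6% of all names were in the vehicle pair and 8.87% in the SD pair. The scaling moved the median log2 fold change of all names by -0.16 in the vehicle pair, -0.45 in the SD pair and -0.18 between the G93A libraries. In the last comparison 0 members were then called (1.52% of all names higher and 4.67% lower), and 8 of 10 were higher by any amount, against 21.4% of the names above 0 in either library. On that scale the log2 fold change of Gfap in G93A + SD against G93A vehicle was 0.045, and that of Vim 0.42.

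Genes that act with the members were read next. Spp1, which encodes the CD44 ligand osteopontin, was 70.1 RPKM in WT vehicle against 356 RPKM in G93A vehicle, and Has2, a hyaluronan synthase, was 0.169 against 0.604 RPKM. Has1 and Has3, the other synthases, were not called in that pair, and Vcan, a proteoglycan that binds hyaluronan, lay just under the call with a log2 fold change of 0.58. Thus 2 of 5 CD44 partners were called higher. The count was 1 with a pseudocount of 1 or with the filter on the mean, without Has2, and 3 with no pseudocount or with the highest row of a name. In the sphingosine 1-phosphate pathway, 3 of 8 genes were called higher and none lower. Sgpl1, the lyase that degrades the lipid, went from 9.67 RPKM in WT vehicle to 30.9 RPKM in G93A vehicle, Sphk1, a kinase that makes it, from 0.709 to 2.18 RPKM, and S1pr2 from 1.25 to 2.67 RPKM. S1pr1 and S1pr5, which are expressed far above S1pr3 in WT cord, were 36.0 and 25.5 RPKM in WT vehicle and 35.5 and 22.2 RPKM in G93A vehicle.

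Within the STEAP family and its metal partners, 2 of 5 genes were called higher and 1 lower, and 1 was called higher with a pseudocount of 1 or with that filter, without Steap1. Steap3 went from 1.55 to 3.92 RPKM and Steap1 from 0.134 to 0.485 RPKM, whereas Steap2 went from 10.01 to 5.91 RPKM. Hephaestin (Heph) and ferroportin (Slc40a1) were not called in the vehicle pair. The lipocalin 2 receptor genes Slc22a17 and Lrp2 were not called in any comparison, and Slc22a17 was 145 RPKM in WT vehicle against 117 RPKM in G93A vehicle. Of the relatives of Emp1, Emp3 was 2.27 RPKM in WT vehicle against 12.98 RPKM in G93A vehicle, Emp2 was 8.51 and 18.6 RPKM, and Pmp22 was not called (56.0 and 81.4 RPKM). Among other filament and linker genes, Krt8, Krt18 and Des were called higher, all at 0.548 RPKM or less in every library and 0 of them called with a pseudocount of 1, and Synm and Plec were not called.

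Signals that are known to induce the reactive state were also higher. Of 7 genes of the STAT3 input, 6 were called higher in G93A vehicle, and Osmr is on this list too. Socs3, which STAT3 induces and which restrains it, was 0.424 RPKM in WT vehicle against 6.82 RPKM in G93A vehicle, and Stat3 itself was 17.8 and 34.5 RPKM. The cytokine gene Lif was 5.09-fold and Cntf 3.61-fold higher. In G93A + SD against G93A vehicle, 1 of the 7 was called higher (Osmr), and 0 with a pseudocount of 1, with a 2-fold call or with scaling to the astrocyte identity genes. The microglial factors Il1a, Tnf, C1qa, C1qb and C1qc were all called higher in G93A vehicle (5 of 5), with C1qa at 26.0 RPKM in WT vehicle against 281 RPKM in G93A vehicle, and 0 of 5 were called between the G93A libraries. With a pseudocount of 1, 4 of these 5 and 5 of the 7 STAT3 input genes were called higher in the vehicle pair.

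**Figure D4:**
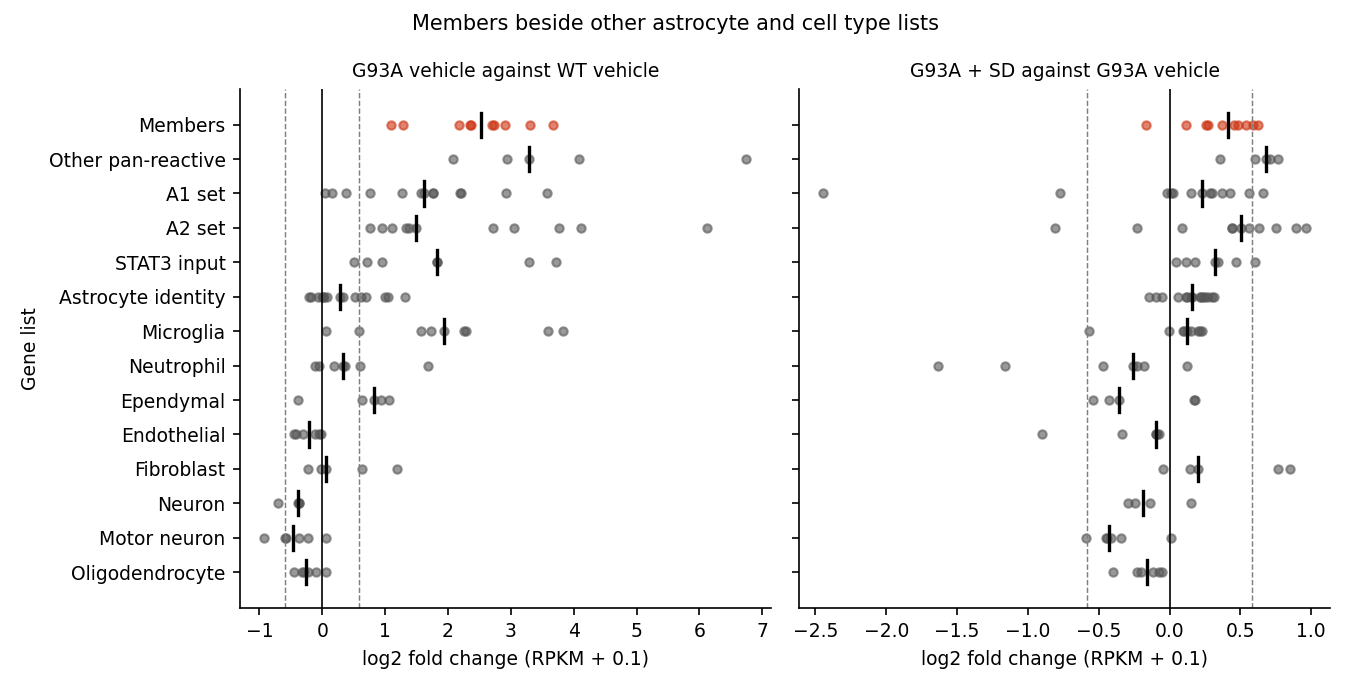
Log2 fold change on values plus 0.1 RPKM (horizontal axis) of each gene (points) in the members and 13 other lists, with a bar at each list's median and dashed lines at 1.5-fold. The left panel compares G93A vehicle with WT vehicle and the right panel G93A + SD with G93A vehicle; the member medians are 2.53 and 0.41, and those of the astrocyte identity genes 0.28 and 0.16.

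Markers of other cells that can express the members were read as well. Of 9 microglial genes, 7 were called higher in G93A vehicle and none lower, and their sum was 145 RPKM in WT vehicle, 136 RPKM in WT + SD, 678 RPKM in G93A vehicle and 711 RPKM in G93A + SD. Microglia can express Vim and Cd44, and their part in the level of these genes was not tested. Between the G93A libraries 0 of the 9 microglial genes were called. Ependymal genes, which mark cells that also hold vimentin and nestin, were called higher for 4 of 5 genes in G93A vehicle, with sums between 12.6 and 22.0 RPKM over the 4 libraries. In the SD pair 2 of 5 were called higher and the median of the 5 was 0.32 on the log2 scale, and 0 of 5 were called between the G93A libraries. Their part was not tested either.

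Of 6 endothelial genes none was called in the vehicle pair, and their sum was 35.05 RPKM in WT vehicle against 32.04 RPKM in G93A vehicle. Between the G93A libraries 1 of the 6 was called lower, Cldn5, from 12.3 to 6.55 RPKM. Mural cell genes were called higher for 1 of 5 (Kcnj8) and fibroblast genes for 2 of 5 (Col1a1 and Col1a2) in G93A vehicle, and 2 fibroblast genes, Dcn and Lum, were called higher in the SD library of the G93A pair. T cell genes summed to between 0.0629 and 0.426 RPKM.

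Neutrophil genes bear on Lcn2, which neutrophils store in granules. The 7 of 8 such genes in the table summed to 1.14 RPKM in WT vehicle, 0.833 RPKM in WT + SD, 2.51 RPKM in G93A vehicle and 0.922 RPKM in G93A + SD. As for Lcn2 the sum was highest in G93A vehicle and lowest in WT + SD. In G93A + SD, however, the sum lay below that of WT vehicle, whereas Lcn2 lay above its WT vehicle level (4.67 against 2.10 RPKM). In the vehicle pair 2 of the 7 genes were called higher and none lower, and by any amount 5 were higher and 2 lower. The called genes were S100a9, at 0.328 RPKM in WT vehicle against 1.28 RPKM in G93A vehicle, and S100a8, at 0.583 against 0.938 RPKM. Camp (0.0936 against 0.0879 RPKM) and Mpo (0.0496 against 0.0387 RPKM) went the other way. Mpo, Elane and Camp were listed at 0 in at least 1 library. The part of neutrophils in the level of Lcn2 was not tested.

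The genes of neurons and myelin were lower by median in G93A in both pairs, most of them short of a call in the vehicle pair. The pan-neuronal genes were at a median log2 fold change of -0.38 in G93A vehicle (1 of 4 called lower), the motor neuron genes at -0.47 (2 of 6 called lower) and the oligodendrocyte genes at -0.26 (0 of 6 called). In the SD pair the medians were -0.49 (1 of 4 called lower), -0.74 (4 of 6) and -0.47 (1 of 6). Between the G93A libraries the medians were -0.19 (0 of 4 called), -0.43 (1 of 6 called lower, Chat) and -0.16 (0 of 6 called), and 3 of 4, 5 of 6 and 6 of 6 genes were below 0. Chat, the acetylcholine enzyme of motor neurons, was 9.83 RPKM in WT vehicle, 8.57 RPKM in WT + SD, 6.55 RPKM in G93A vehicle and 4.33 RPKM in G93A + SD. RPKM are relative to the total of a library, and the part of the neuronal and myelin levels in those of the members was not tested.

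The pattern of Gfap over the 4 libraries was compared with that of 8846 names with a mean of at least 5 RPKM, by the distance between their centred log2 values. The nearest were Plscr2 (0.046), Laptm5 (0.11), Mylk (0.15), Tmem176a (0.16) and Cd34 (0.16). Plscr2 was 2.99 RPKM in WT vehicle, 2.53 RPKM in WT + SD, 15.7 RPKM in G93A vehicle and 19.2 RPKM in G93A + SD. Among the members, Nes was nearest to Gfap (0.16), followed by Aspg (0.24), and Cd44 and Emp1 were also close to each other (0.25). Vim and Cp were farthest apart (2.71). Each distance rests on 4 libraries, which all genes share, and is a description only.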

How the data were processed

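Lumbar spinal cord RNA was measured in 4 libraries, and conditions were taken from the sample titles. According to the methods and the submitters' processing notes, polyA RNA was sequenced as 53 bp reads and aligned with STAR to GRCm38 (mm10), and HTSeq counted reads on an Ensembl gene set. The authors deposited a table of RefSeq transcripts with 1 value column per library. The deposited values were taken as RPKM, inferred from the values, since the header names no unit and no step that leads to them is stated. Ratio columns of the authors' own comparisons were not used. With 1 library per condition, no count model was fitted and no p-value was computed.

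The rows of a gene name were averaged, and log2 fold changes were computed on RPKM plus a pseudocount of 0.1, with a call at 1.5-fold and no filter on low values. Folds in the text are ratios of RPKM without a pseudocount. Pseudocounts of 1 and 0, median-ratio scaling, the highest row, a mean of at least 1 RPKM and a 2-fold call were tried. Scaling to astrocyte identity genes was added after seeing the data. The members and lists were chosen with earlier results of these data known. Genes named are the 10 members, up to 4 genes with the largest folds per list, defining genes at 0, and the 5 names nearest to Gfap. The other list members named, among them Stat3, Chat and genes that were not called, and the names nearest to other members were chosen after their values were seen. Lengths from GENCODE M21 were found for 23031 of 23750 rows. The commonest low value times length was read as 1 fragment, so that fragments and depth are estimates, and no interval was derived from them. Some marker genes are not reported here. Promoter windows are from RefSeq (GRCm38.p6). The software was pandas 2.3.3, numpy 2.4.6 and matplotlib 3.10.9 under Python 3.11.15. The calling code was tested on simulated data without spread between animals, which gives no error rate for the calls.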

Additional observations from a re-analysis of the deposited data

Results flagged for a closer look

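In 8 of the 10 members, SD and vehicle differed in opposite directions in the 2 genotypes, with the SD library higher in G93A and lower in WT, as in 22.1% of all 18674 names. With 1 library per condition these differences between the genotypes were not tested. The SD log2 fold change in G93A minus that in WT was 0.45 for Gfap, 0.72 for Vim, 0.29 for Nes, 0.58 for S1pr3, 0.80 for Emp1, 1.31 for Steap4, 0.45 for Cp and 0.14 for Aspg. Of these 8 it reached 1.5-fold for Vim, Emp1 and Steap4, as together with those directions in 4.55% of all names, and the value of Steap4 rests on a level listed at 0 in WT + SD. In WT the SD library was at 0.988 of the vehicle level for Nes, 0.980 for Aspg, 0.943 for Cp, 0.936 for Vim and 0.912 for S1pr3. Scaled to the astrocyte identity genes, 3 of the 8 kept these directions (Gfap, Emp1 and Steap4), which 6.55% of all names had on that scale. On that scale 4 were higher with SD in both genotypes (Vim, Nes, S1pr3 and Cp, at 0.038, 0.11, 0.0012 and 0.048 in WT on the log2 scale), and Aspg was lower in G93A (-0.092) and higher in WT (0.096).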

How the results depend on the processing

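The member genes were called higher in G93A in both pairs under each alternative in which they could be computed, and no called value turned around. The median log2 fold change in the vehicle pair was 2.21 with a pseudocount of 1, 2.79 with no pseudocount, 2.70 among members with a mean of at least 1 RPKM and 2.32 when scaled to astrocyte identity genes. In the SD pair it was 2.57, 2.96, 2.84 and 2.60 under the same settings. Of the 2 members called higher with SD in G93A, 1 was left with a pseudocount of 1, with median-ratio scaling and with the filter, since Steap4 was no longer called or was left out, and 0 with a 2-fold call or with scaling to the identity genes. That last scaling moved the median in this comparison to 0.20, in WT + SD against WT vehicle to 0.019, and the difference between genotypes in the SD log2 fold change to 0.21. Of the 2 members called lower in WT + SD, 1 (Lcn2) was left with a pseudocount of 1, with none, with the filter and with a 2-fold call. Taking the highest row of a name moved no call of a member. Over all lists, 165 of the counts under the alternatives moved by more than 1.5 times and 1235 did not. No paired analysis was possible because each condition has a single library. Leaving out a library was not possible for the same reason. Depth limits Steap4 first, with about 7.54 estimated fragments in WT vehicle. Spread between mice is unknown for all values.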

Other observations

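Some genes near the members in pattern, named here after their values were seen, have known functions in this setting. The name nearest to Cp was Sat1, which encodes the enzyme that acetylates spermidine and spermine for breakdown and export. Sat1 was 21.6 RPKM in WT vehicle, 21.3 RPKM in WT + SD, 47.3 RPKM in G93A vehicle and 60.1 RPKM in G93A + SD. Osmr was the nearest name to S1pr3, with a distance of 0.12, and Ggta1 the nearest to Cd44, with 0.052. Mt2, a metallothionein, was among the 5 names nearest to Aspg and was 149 RPKM in WT vehicle, 140 RPKM in WT + SD, 900.3 RPKM in G93A vehicle and 978 RPKM in G93A + SD.

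The names nearest to Lcn2 were H2-K1 (0.34) and H2-D1 (0.44), both class I genes, with LOC547349, Sgk1 and Apbb1ip next. H2-K1 was 17.0 RPKM in WT vehicle, 8.16 RPKM in WT + SD, 40.7 RPKM in G93A vehicle and 44.8 RPKM in G93A + SD. Sgk1, a kinase gene that glucocorticoids induce, was 36.5, 18.4, 75.7 and 78.8 RPKM in the same order. H2-K1, H2-D1 and LOC547349 may share reads with other class I genes.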
